A study of Mus musculus with 12 samples.

Results

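Branched-chain amino acid (BCAA) breakdown was followed through 10 genes, chosen by name for the step each one encodes: Bcat1, Bcat2, Bckdha, Bckdhb, Dbt, Bckdk, Ivd, Mccc1, Mccc2 and Hibch. The choice was made with earlier results of these data known. All 10 were among the 48321 genes listed in the RNAseq table and among the 11998 that had enough reads to be tested. The 12 libraries came from WT brown preadipocytes of a newborn mouse that had been immortalized with the SV40 large T antigen, made to carry either an empty pLEX lentiviral vector (vector) or pLEX with a Flag-tagged truncated Sema4B that mimics the ectodomain released by the protease ADAM17 (tSema4B), and differentiated for 8 days. Each of the lines was then kept in serum-free medium for 6 h either without stimulus (unstimulated) or with 2 μM norepinephrine (NE), the neurotransmitter that activates brown fat, which gave 4 groups of 3 libraries. All groups therefore shared the SV40 immortalization and a lentiviral integration with drug selection, and 1 stably transduced line stood for each construct.

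Leucine, isoleucine and valine are first transaminated, by BCAT1 in the cytosol or BCAT2 in mitochondria, to branched-chain ketoacids. The mitochondrial branched-chain ketoacid dehydrogenase complex (BCKD) then commits the carbon skeleton to oxidation, and BCKD kinase switches the complex off by phosphorylation. Separate enzymes carry the leucine, valine and isoleucine skeletons on to intermediates of the TCA cycle, and brown adipocytes are known to oxidize BCAA as a fuel during thermogenesis.

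The values are read counts per gene that were normalized between libraries with DESeq2. Reads on genes ranged from 2000780 to 5409583 per library, and within each condition every vector library was deeper than every tSema4B library. Genes encoded by mitochondrial DNA took 13.4% to 16.7% of the reads in vector cells and 6.91% to 7.89% in tSema4B cells. Sema4b itself took 2.04% to 4.02% of the reads in vector libraries and 7.01% to 10.2% in tSema4B libraries. Its level was thus high under the empty-vector label too, at a mean of 20690 normalized counts per kilobase in unstimulated vector cells beside 5354 for the adipocyte gene Fabp4, and by the means of the normalized counts tSema4B cells were 2.41-fold higher without stimulus and 3.16-fold higher after NE. Counts per gene do not tell transcripts of the construct from those of the cell's own gene, and where the Sema4b reads of the vector libraries came from was not tested. The label brown adipocyte was checked against markers: Ucp1, the uncoupling protein of brown fat, read from 9.25 to 15.2 normalized counts in unstimulated vector cells and from 268 to 293 after NE, whereas Dio2 was at 0 in all 12 libraries, and Ucp1 was at 0 in the 3 unstimulated tSema4B libraries, which allows up to 3.58 to 4.64 normalized counts (3 reads) in them, and read from 60.8 to 66.5 after NE. No source used here says whether the 3 libraries of a group were separate cultures, so the p-values measure the spread between these libraries, which may be technical.

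In each of the 4 groups Bckdk was the highest of the 10 genes per kilobase of exon. Averaged over the 12 libraries, the level per kilobase was 108 for Bckdk, 35.6 for Bcat2, 31.5 for Mccc2, 27.3 for Bckdhb, 25.6 for Dbt, 24.0 for Bckdha, 21.9 for Ivd, 16.3 for Hibch, 7.90 for Bcat1 and 7.74 for Mccc1. The lowest Bckdk library (97.4 per kilobase) lay above the highest Bcat2 library (53.8 per kilobase), and every other pair of neighbours in this order had overlapping ranges. When the longest annotated transcript was used as the length instead of all exons, the first 4 places were kept, and Mccc1 (12.6 per kilobase) and Bcat1 (9.40 per kilobase) came last.

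Promoters are shown for the aminotransferase pair, which serves the same step, and for Bckdhb, the member with the largest change. The windows run from 250 bases before to 50 bases after the RefSeq start in GRCm38.p6, 5′ to 3′ along the gene, with CpG dinucleotides in capitals. For each of these 3 genes the RefSeq table holds 2 starts, and the window printed is the one further upstream. The Bcat1 window is chr6:145076108-145076407 on the minus strand, the Bcat2 window chr7:45569903-45570202 on the plus strand and the Bckdhb window chr9:83924887-83925186 on the plus strand.
Bcat1: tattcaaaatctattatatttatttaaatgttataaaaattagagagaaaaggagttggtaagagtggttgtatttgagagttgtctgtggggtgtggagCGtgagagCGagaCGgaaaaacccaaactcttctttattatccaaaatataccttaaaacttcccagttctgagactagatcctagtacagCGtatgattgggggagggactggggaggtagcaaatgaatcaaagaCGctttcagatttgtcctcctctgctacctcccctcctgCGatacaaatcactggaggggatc
Bcat2: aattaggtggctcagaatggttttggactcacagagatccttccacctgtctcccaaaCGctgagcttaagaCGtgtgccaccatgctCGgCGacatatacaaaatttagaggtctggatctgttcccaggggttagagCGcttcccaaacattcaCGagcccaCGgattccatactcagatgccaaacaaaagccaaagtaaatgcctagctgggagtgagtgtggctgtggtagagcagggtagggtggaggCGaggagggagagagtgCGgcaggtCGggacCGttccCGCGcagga
Bckdhb: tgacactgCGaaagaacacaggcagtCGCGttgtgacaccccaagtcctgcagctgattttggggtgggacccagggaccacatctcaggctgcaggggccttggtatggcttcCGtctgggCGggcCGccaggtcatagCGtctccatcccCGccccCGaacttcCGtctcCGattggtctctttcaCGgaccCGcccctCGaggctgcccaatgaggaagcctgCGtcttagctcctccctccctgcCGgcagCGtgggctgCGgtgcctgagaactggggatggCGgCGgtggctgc
The printed windows held 6 CpG for Bcat1, 13 for Bcat2 and 20 for Bckdhb, whereas the windows of the other starts held 16, 9 and 2, so that no order of the 3 genes follows from these counts. They stand beside a median of 7 (quartiles 3 to 20) over 32851 mouse promoters. The RefSeq table held 12 windows for 9 of the 10 genes, Dbt being the exception, with a median of 12 CpG (2 to 20). Exact matches on either strand to TCAAGGTCA (a site of estrogen-related receptors, regulators of oxidative genes), TGACGTCA (the cAMP response element) and TTGCGCAA (a C/EBP site) were found in 0 of the 12 windows, and in 0.423%, 1.79% and 0.183% of all promoters. These letters are merely missing from these windows, which says nothing about whether the factors act on the genes.

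**Figure D1:**
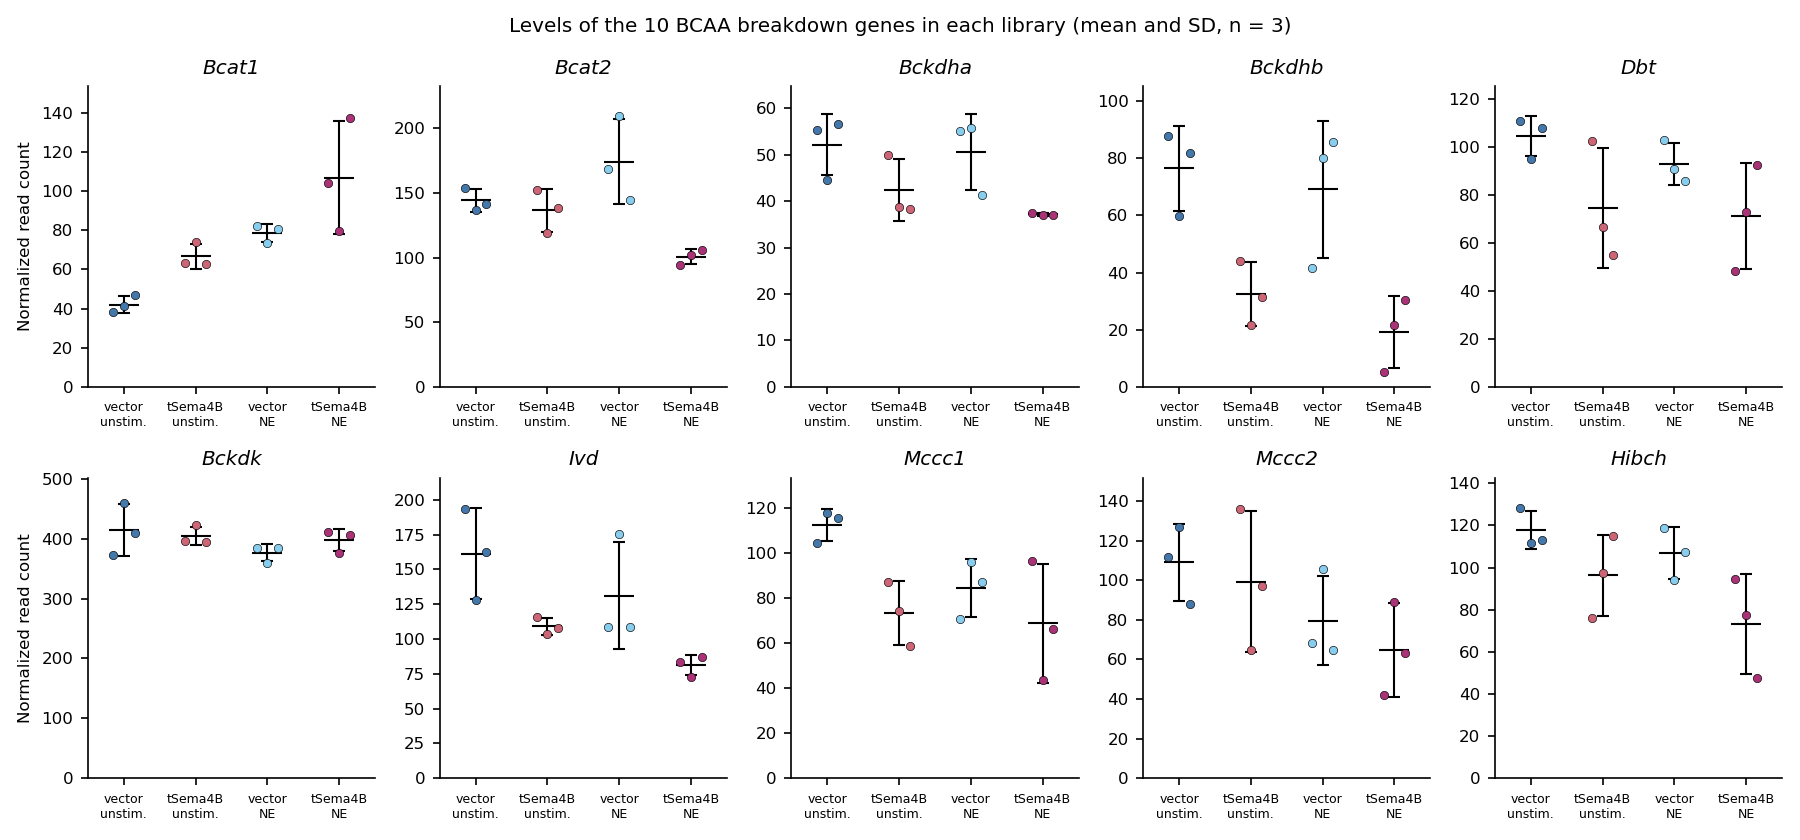
Normalized read count (vertical axis, linear, from 0) of each of the 10 genes in the 12 libraries. Points are libraries, horizontal bars the group means and vertical bars the SD (n = 3). The Bcat1 mean is 42.0 in unstimulated vector cells and 107 in NE-treated tSema4B cells, the Bckdhb means are lower in both tSema4B groups, and Bckdk lies between 360 and 460 throughout.

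The question of the first pair of comparisons was whether adipocytes expressing tSema4B differ from vector cells in these transcripts, without stimulus and after NE. Without stimulus, 0 of the 10 genes passed the test, and after NE Bcat2, Bckdhb and Ivd were lower in tSema4B cells. Bcat1 had a positive difference in both conditions without passing the test. A gene is said to have changed when its limma p, adjusted over all 11998 genes by the Benjamini-Hochberg method, was 0.05 or less, and log2 fold changes (log2FC) are on the scale of log2(normalized count + 1).

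Bcat1 (ENSMUSG00000030268.17, chr6:144993835-145076184, GRCm38, minus strand) encodes the cytosolic aminotransferase. Its normalized counts were 38.0, 41.2 and 46.8 in unstimulated vector and 63.2, 74.3 and 63.0 in unstimulated tSema4B libraries. All 3 tSema4B libraries lay above all 3 vector libraries, a ratio of means of 1.59, but the difference did not pass the test (log2FC 0.66 with SE 0.231, adjusted p = 0.0641). After NE the counts were 82.0, 73.5 and 80.5 in vector cells and 104, 79.5 and 137 in tSema4B cells, so that 1 tSema4B library fell within the vector range (log2FC 0.41 with SE 0.231, adjusted p = 0.233). Bcat1 shares 337 exon bases with an antisense gene, Gm26666, and since no source used here states the strand setting of the counting, reads of the pair cannot be told apart.

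Bcat2 (ENSMUSG00000030826.19, chr7:45570153-45589711) encodes the mitochondrial aminotransferase. Unstimulated vector cells had 154, 137 and 142 normalized counts and unstimulated tSema4B cells 153, 119 and 138. These ranges overlapped (log2FC -0.08 with SE 0.172, adjusted p = 0.813). After NE the vector libraries read 169, 210 and 145 and the tSema4B libraries 94.4, 102 and 106. Every NE-treated tSema4B library was below every NE-treated vector library, and Bcat2 was 1.73-fold lower by the means, 101 ± 5.81 against 174 ± 32.9 (log2FC -0.77 with SE 0.172, adjusted p = 0.00258). Over the 6 fits that each left out 1 library, its log2FC stayed between -0.90 and -0.63. A stretch of 622 exon bases is shared with the antisense gene 0610005C13Rik.

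The aminotransferase pair was also set against each other per kilobase. The Bcat1 share of the summed Bcat1 and Bcat2 level was 9.35%, 11.2% and 12.2% in unstimulated vector libraries (10.9 ± 1.42) and 14.8%, 20.7% and 16.0% in unstimulated tSema4B cells (17.2 ± 3.12). After NE it was 16.9%, 12.8% and 18.9% in vector cells (16.2 ± 3.11) and 31.6%, 24.6% and 35.2% in tSema4B cells (30.4 ± 5.43). In both conditions all tSema4B libraries exceeded all vector libraries, and the NE-treated tSema4B libraries exceeded every other library. The share was not tested, and these values are a description. Its size depends on the length used, since with the longest transcript the 4 means were 7.21%, 11.6%, 10.9% and 21.8%, with the groups in the same positions.

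**Figure D2:**
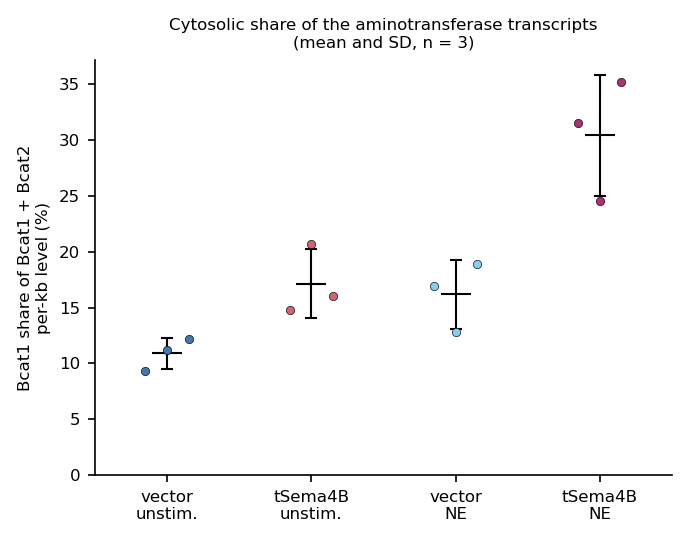
Share of Bcat1 in the summed per-kilobase level of Bcat1 and Bcat2 (vertical axis, percent, from 0) in each library. Points are libraries, bars the mean and SD (n = 3). The 3 NE-treated tSema4B libraries lie between 24.6% and 35.2%, and no other library is above 20.7%.

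Among the subunits of BCKD, Bckdhb (ENSMUSG00000032263.14, chr9:83925145-84124240), which encodes the beta subunit of the decarboxylase component, had the largest differences. In unstimulated cells it read 88, 59.7 and 81.7 in vector and 44.1, 21.7 and 31.5 in tSema4B libraries. The groups did not overlap, and the means stood at a 2.36-fold difference that fell short of the threshold (log2FC -1.25 with SE 0.447, adjusted p = 0.0694). With edgeR and with DESeq2 on the whole reads the same difference was past it (adjusted p = 0.0370 and 0.0243). After NE the counts were 41.7, 80.0 and 85.8 in vector and 5.36, 21.8 and 30.4 in tSema4B libraries, again without overlap. Bckdhb was 3.61-fold lower by the means, 19.2 ± 12.7 against 69.1 ± 24.0 (log2FC -2.01 with SE 0.447, adjusted p = 0.00247). The lowest value rests on 5 reads, and without that library (tSema4B NE replicate 1) the log2FC was -1.32 and was still past the threshold (adjusted p = 0.0127). No other gene of the GENCODE annotation shares exon bases with Bckdhb.

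Bckdha (ENSMUSG00000060376.7, chr7:25629946-25658981), the alpha subunit that BCKD kinase phosphorylates, did not pass the test. It read 55.4, 44.6 and 56.6 in unstimulated vector and 50.1, 38.7 and 38.3 in unstimulated tSema4B libraries, which overlap (log2FC -0.30, adjusted p = 0.522). After NE the vector libraries read 55.1, 55.7 and 41.2 and the tSema4B libraries 37.5, 36.9 and 37.0, without overlap (log2FC -0.43 with SE 0.264, adjusted p = 0.277). Of the 1899 exon bases of Bckdha, 1171 also belong to B3gnt8 on the other strand, so reads of the pair cannot be told apart. The ratio of Bckdha to Bckdhb per kilobase was 0.656 ± 0.0556 in unstimulated vector and 1.31 ± 0.337 in unstimulated tSema4B libraries. After NE it was 0.792 ± 0.416 in vector cells, and in tSema4B cells it was 6.65, 1.61 and 1.16, the first of these being the library with 5 Bckdhb reads.

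Dbt (ENSMUSG00000000340.10, chr3:116513070-116549981) encodes the transacylase core of the complex. The counts were 111, 95 and 108 in unstimulated vector and 102, 66.5 and 54.8 in unstimulated tSema4B libraries (log2FC -0.53 with SE 0.251, adjusted p = 0.183). After NE they were 103, 90.7 and 85.8 in vector cells and 48.3, 72.9 and 92.5 in tSema4B cells (log2FC -0.43 with SE 0.251, adjusted p = 0.248). In either condition 1 tSema4B library fell within the vector range.

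Bckdk (ENSMUSG00000030802.14, chr7:127904082-127910221), the inhibitory kinase, was the steadiest of the 10 genes. It read 374, 460 and 410 in unstimulated vector libraries, 397, 422 and 394 in unstimulated tSema4B cells, 385, 360 and 384 in NE-treated vector cells and 411, 376 and 407 in NE-treated tSema4B cells. In each of the 4 comparisons of groups the libraries overlapped. The log2 difference between tSema4B and vector was -0.03 without stimulus, with a 95% interval from -0.26 to 0.20, and 0.08 after NE, from -0.15 to 0.31. Per kilobase the ratio of Bckdk to Bckdha was 4.16 ± 0.997 and 3.90 ± 0.777 in unstimulated and NE-treated vector cells, and 4.99 ± 0.810 and 5.50 ± 0.235 in the corresponding tSema4B cells. Those ranges overlap without stimulus, and after NE the lowest tSema4B library (5.23) was above the highest vector library (4.78). The ratio was not tested, and it carries the limit given for Bckdha, whose reads cannot be told apart from those of B3gnt8.

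In the leucine branch, Ivd (ENSMUSG00000027332.11, chr2:118861954-118882909) encodes isovaleryl-CoA dehydrogenase, the step after BCKD. It read 193, 128 and 162 in unstimulated vector and 116, 104 and 108 in unstimulated tSema4B libraries. The groups did not overlap, and the difference did not pass the test (log2FC -0.54 with SE 0.205, adjusted p = 0.0900). After NE the vector libraries read 109, 175 and 109 and the tSema4B libraries 83.6, 72.9 and 87.2. All tSema4B libraries were lower, 81.3 ± 7.44 against 131 ± 38.5, and Ivd passed the test (log2FC -0.65 with SE 0.205, adjusted p = 0.0275). The call did not hold without vector NE replicate 2 (log2FC -0.42, adjusted p = 0.205), without tSema4B NE replicate 2 (-0.57, adjusted p = 0.0891) or with the libraries rescaled to the same total (-0.55, adjusted p = 0.0569).

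The next leucine enzyme, methylcrotonyl-CoA carboxylase, is built from the biotin-carrying subunit encoded by Mccc1 (ENSMUSG00000027709.9, chr3:35959312-36000678) and the subunit encoded by Mccc2 (ENSMUSG00000021646.9, chr13:99948530-100015639). Mccc1 read 104, 118 and 115 in unstimulated vector and 87.0, 74.3 and 58.9 in unstimulated tSema4B libraries, without overlap (log2FC -0.63 with SE 0.252, adjusted p = 0.109). After NE it read 70.6, 96.0 and 87.1 in vector cells and 96.5, 43.6 and 66.1 in tSema4B cells, where the highest single value was a tSema4B library (log2FC -0.36, adjusted p = 0.346). Antisense genes cover 613 of the exon bases of Mccc1. Mccc2 overlapped in both conditions, at 112, 127 and 88.2 against 136, 65.0 and 97.2 without stimulus (adjusted p = 0.751) and at 68.5, 106 and 64.8 against 41.8, 89.0 and 63.4 after NE (adjusted p = 0.465).

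Hibch (ENSMUSG00000041426.12, chr1:52844929-52920986) encodes 3-hydroxyisobutyryl-CoA hydrolase of the valine branch. It read 128, 112 and 113 in unstimulated vector and 76.3, 97.5 and 115 in unstimulated tSema4B libraries (log2FC -0.31, adjusted p = 0.440). After NE it read 119, 94.2 and 107 in vector cells and 94.4, 77.6 and 47.6 in tSema4B cells. A single tSema4B library just reached the lowest vector value, and the difference missed the threshold (log2FC -0.59 with SE 0.232, adjusted p = 0.0754). Without tSema4B NE replicate 1 it was past it (log2FC -0.80, adjusted p = 0.0232).

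Counted together, 0 of the 10 genes were higher and 0 lower in unstimulated tSema4B cells, beside 5.64% of all tested genes that were higher and 7.39% that were lower. Both edgeR and DESeq2 passed 1 lower gene of the 10, Bckdhb. After NE 0 were higher and 3 were lower, beside 9.79% and 11.2% of all genes, and edgeR and DESeq2 passed the same 3 genes. With the libraries rescaled to the same total, 1651 of all genes were higher and 1030 lower, against 1175 and 1342 as scaled by the authors. With a further threshold, a log2FC of 1 or more in either direction, 0 of 10 remained without stimulus and 1 of 10, Bckdhb, after NE, where 3.82% and 5.76% of all genes did so. Groups were free of overlap for 4 of the 10 genes in each condition, against 29.4% of all genes without stimulus and 37.7% after NE. The log2 fold change was negative for 9 of 10 genes without stimulus and 8 of 10 after NE, with medians of -0.30 and -0.43, while the median over all tested genes was -0.0025 and -0.010.

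**Figure D3:**
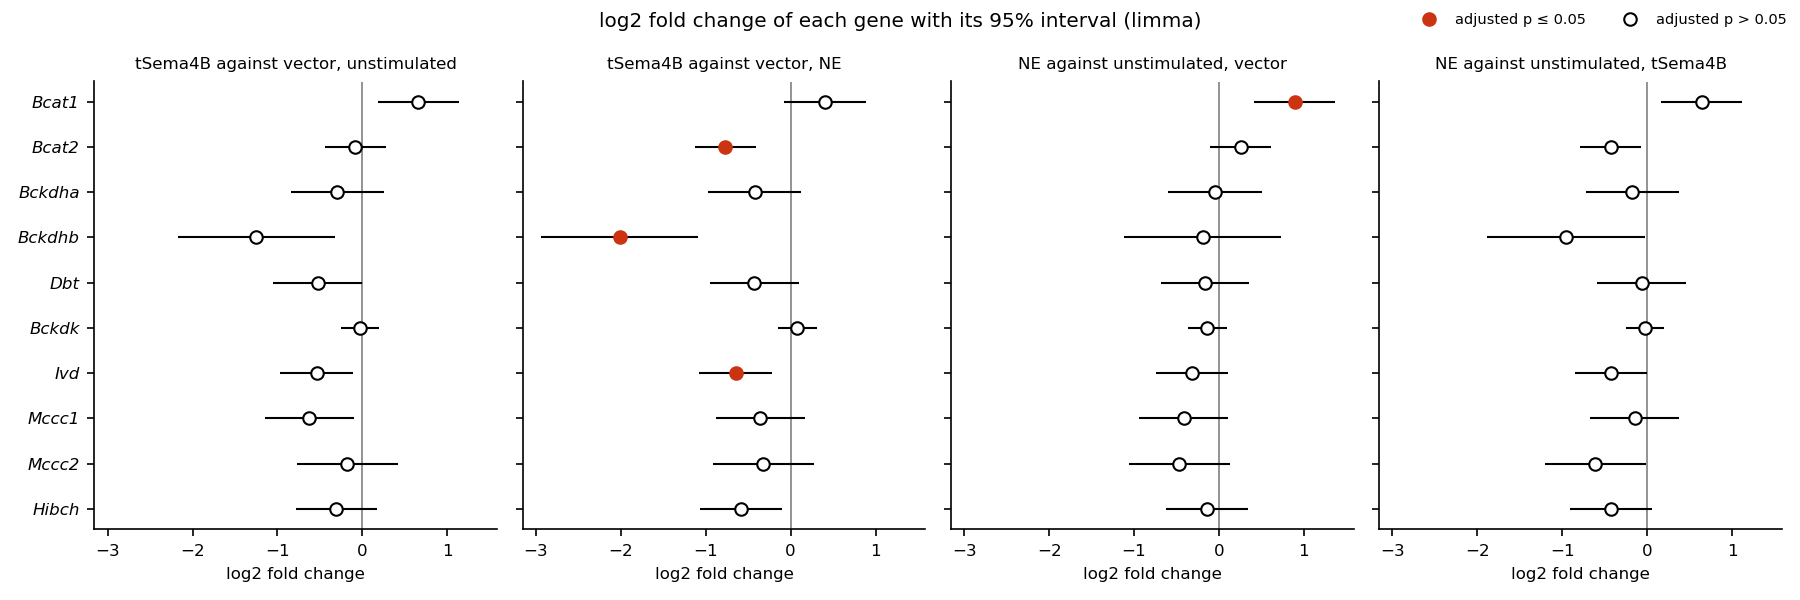
log2 fold change (horizontal axis) of each of the 10 genes in the 4 comparisons of 2 groups, with its 95% interval from limma. Filled points passed an adjusted p of 0.05 and open points did not. Bcat2, Bckdhb and Ivd are filled on the lower side for tSema4B against vector after NE, and Bcat1 on the higher side for NE in vector cells.

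The other pair of comparisons asked what NE does to these transcripts in each line. They reuse the same libraries as the comparisons above, so their values are not separate evidence. In vector cells Bcat1 rose from 42.0 ± 4.47 to 78.7 ± 4.54, a 1.87-fold increase by the means in which all NE libraries (73.5 to 82.0) lay above all unstimulated ones (38.0 to 46.8), and it was the only one of the 10 genes past the test (log2FC 0.89 with SE 0.231, adjusted p = 0.0135). That call was lost without vector unstimulated replicate 1 (log2FC 0.82, adjusted p = 0.0558), without vector NE replicate 1 (0.86, adjusted p = 0.0531) and without vector NE replicate 3 (0.88, adjusted p = 0.0593). Bcat2 had a log2FC of 0.26 (SE 0.172, adjusted p = 0.396), Mccc1 -0.42 (adjusted p = 0.337) and Mccc2 -0.47 (adjusted p = 0.346). In all, 1 of 10 was higher and 0 lower, beside 6.82% and 4.78% of all genes, 0 of 10 also reached a log2FC of 1 (2.63% of all genes), and Bcat1 and Mccc1 were the 2 of 10 without overlap (33.3% of all genes).

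In tSema4B cells NE moved 0 of the 10 genes past the test in either direction, beside 3.68% of all genes higher and 2.58% lower, and 2.07% past both thresholds. edgeR and DESeq2 also gave 0. Bcat1 averaged 66.8 ± 6.45 without and 107 ± 29.1 with NE (log2FC 0.64 with SE 0.231, adjusted p = 0.107) and Bcat2 137 ± 16.8 and 101 ± 5.81 (log2FC -0.43 with SE 0.172, adjusted p = 0.152). Bckdhb averaged 32.4 ± 11.2 and 19.2 ± 12.7 with overlapping libraries (log2FC -0.96 with SE 0.447, adjusted p = 0.233). Without the library with 5 Bckdhb reads (tSema4B NE replicate 1) its log2FC was -0.27, and the 6 fits that each dropped 1 library spanned -1.42 to -0.27, with none past the threshold. Groups without overlap were seen for 4 of the 10 genes, Bcat1, Bcat2, Bckdha and Ivd, where 20.7% of all genes had them.

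Whether the response to NE differed between the lines was tested as an interaction. With limma 0 of 10 members passed it, beside 3 of 11998 genes (0.025%), and with edgeR 0 of 10, beside 4 of 11998 genes. DESeq2 gave an adjusted p for 4 members, Bcat2, Bckdk, Hibch and Ivd, of which 0 passed, and passed 29 genes with a positive and 58 with a negative interaction of the 5950 to which it gave one. Bcat2 alone had an unadjusted p under 0.05 (interaction -0.69 on the log2 scale with SE 0.243, limma adjusted p = 0.319). Its mean was 144 ± 8.89 without stimulus and 174 ± 32.9 after NE in vector cells, and 137 ± 16.8 and 101 ± 5.81 in tSema4B cells. The 95% interval of the Bcat1 interaction, from -0.93 to 0.43, leaves room for a smaller or a larger response of Bcat1 in tSema4B cells.

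Genes around these 10 in the pathway also differed between the lines. A list of 30 carriers, partners and later enzymes had 28 tested members. Without stimulus 0 were higher and 11 were lower in tSema4B cells (median log2FC -0.36), and after NE 1 was higher and 12 were lower (median -0.39), beside the same background of all genes as above. NE itself changed 2 of the 28 in vector cells, Slc3a2 (log2FC 0.44, adjusted p = 0.0144) and Aldh6a1 (-0.51, adjusted p = 0.00890). Of all genes, 6.82% were higher and 4.78% lower in that comparison. In tSema4B cells NE changed 1 of the 28, Mmachc, beside 3.68% of all genes higher and 2.58% lower.

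Transport came first in the pathway order. Slc43a1, a facilitative carrier of large neutral amino acids, read 159, 167 and 179 in NE-treated vector cells and 82.6, 62.5 and 52.9 in NE-treated tSema4B cells, and was 2.55-fold lower by the means (log2FC -1.36 with SE 0.203, adjusted p = 4.35e-05). Slc3a2, the heavy chain that brings the carrier SLC7A5 to the cell surface, was also lower after NE (log2FC -0.39, adjusted p = 0.0177). Slc7a5 itself read 26.8 to 52.1 in NE-treated tSema4B and 60.2 to 74.6 in NE-treated vector libraries and did not pass (log2FC -0.92, adjusted p = 0.0929). Slc25a44, the mitochondrial BCAA carrier, had -0.44 without stimulus (adjusted p = 0.0590) and 0.05 after NE (adjusted p = 0.864).

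Of the partners of BCKD, Dld was lower in tSema4B cells in both conditions. DLD is the dehydrogenase subunit that BCKD shares with the pyruvate and oxoglutarate dehydrogenases. Its counts fell from 970 ± 172 to 558 ± 27.2 without stimulus (log2FC -0.78 with SE 0.114, adjusted p = 3.88e-05) and from 1163 ± 81.9 to 693 ± 57.9 after NE (log2FC -0.75, adjusted p = 5.37e-05). Ppm1k, the phosphatase that opposes BCKD kinase, gave 0.01 and 0.30 with wide intervals (-0.80 to 0.82 and -0.52 to 1.11), so neither sign was resolved with these libraries. Klf15, a transcription factor known to promote BCAA catabolism, was lower in both conditions. It read 95.6, 92.5 and 62.1 in unstimulated vector cells against 27.4, 23.2 and 20.5 in tSema4B cells (log2FC -1.75 with SE 0.319, adjusted p = 5.06e-04), and 89.4, 86.5 and 59.6 against 17.2, 32.2 and 42.3 after NE (log2FC -1.40 with SE 0.319, adjusted p = 0.00303).

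Further along, all 4 listed valine enzymes other than Hibch were lower in unstimulated tSema4B cells, namely Acad8 (log2FC -0.55, adjusted p = 0.0438), Echs1 (-0.96, adjusted p = 2.10e-04), Hibadh (-0.73, adjusted p = 5.89e-04) and Aldh6a1 (-0.87, adjusted p = 2.89e-05). After NE Echs1 (-0.89), Hibadh (-0.68) and Aldh6a1 (-0.62) were lower again and Acad8 gave -0.21 (adjusted p = 0.458). Echs1 also serves fatty acid oxidation. Among the leucine genes beyond the members, Auh (-0.52, adjusted p = 0.0183) and Acat1, the mitochondrial thiolase that also belongs to ketone body metabolism, were lower without stimulus and after NE, and Oxct1 did not pass in either. Acat1 fell from 1346 ± 109 to 671 ± 45.3 without stimulus (log2FC -1.0 with SE 0.0918, adjusted p = 6.46e-08) and from 1252 ± 89.7 to 693 ± 35.2 after NE (-0.85, adjusted p = 7.33e-07).

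The 2 genes listed only under the isoleucine branch went opposite ways after NE. Each gene was listed once, and Acat1 and Echs1, given above with the leucine and valine genes, also act in isoleucine breakdown. Both were lower in tSema4B cells in both conditions, so the split describes these 2 genes and not the whole branch. Acadsb, the short/branched chain acyl-CoA dehydrogenase, was higher in tSema4B cells (log2FC 0.52 with SE 0.163, adjusted p = 0.0272) and Hsd17b10 was lower (-0.57 with SE 0.147, adjusted p = 0.00772). Without stimulus Hsd17b10 was lower (-0.48, adjusted p = 0.0321) and Acadsb gave 0.43 without passing. Of the 8 genes that carry propionyl-CoA to succinyl-CoA or supply its cobalamin cofactor, Pcca (-1.10 with SE 0.264, adjusted p = 0.00657) and Mmachc (-0.90 with SE 0.263, adjusted p = 0.0255) were lower without stimulus, and Mcee (-0.84, adjusted p = 0.0205) and Mmadhc (-0.48, adjusted p = 0.0134) after NE. Mmachc, a cobalamin-processing enzyme, rose with NE in tSema4B cells from 39.9 ± 18.6 to 108 ± 12.3 (log2FC 1.51 with SE 0.263, adjusted p = 7.56e-04). Its response did not differ between the lines past the test (interaction 0.97, adjusted p = 0.350).

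Other mitochondrial and adipocyte transcripts moved in the same comparisons. Of 17 TCA cycle genes, 16 were lower in unstimulated tSema4B cells (median log2FC -0.62) and 13 after NE (median -0.54), with 0 higher. All 10 adipocyte markers, among them Adipoq, Fabp4 and Pparg, were lower in both conditions, with log2 fold changes from -2.74 to -1.09 without stimulus and from -2.88 to -1.06 after NE. Their summed normalized counts were 42229 to 48589 in unstimulated vector cells, 7368 to 10115 in unstimulated tSema4B cells, 55998 to 67499 in NE-treated vector cells and 11361 to 12901 in NE-treated tSema4B cells. In these bulk samples, fewer differentiated adipocytes and less RNA of a gene per adipocyte cannot be told apart.

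**Figure D4:**
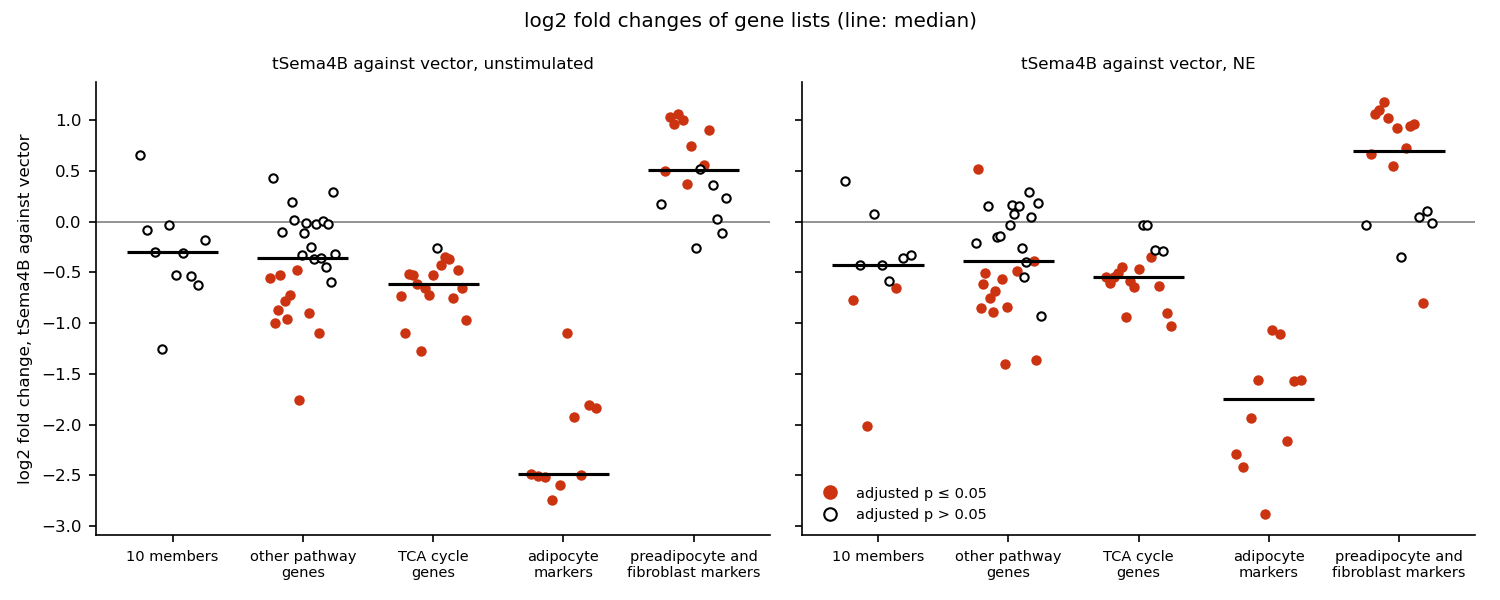
log2 fold change of tSema4B against vector (vertical axis) for the 10 members, the 28 other pathway genes tested, 17 TCA cycle genes, 10 adipocyte markers and 16 preadipocyte and fibroblast markers, without stimulus and after NE. Each point is a gene, filled where the adjusted p was 0.05 or less, and the line is the median. The medians of the members (-0.30 and -0.43) are nearer 0 than those of the adipocyte markers (-2.49 and -1.75).

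Of 9 brown adipocyte markers 7 were tested and 5 were lower in each condition, and the sums over all 9 ran from 248 to 307, 56.0 to 82.1, 530 to 548 and 126 to 157 in the same order of groups, with Dio2 at 0 throughout, Cox8b at 0 in all 6 tSema4B libraries and Ucp1 at 0 in unstimulated tSema4B cells. Ppargc1a went the other way in tSema4B cells, 1.58-fold higher by the means without stimulus and 1.36-fold higher after NE. It rested on 8 to 31 reads per library and did not pass the test in either condition. Of 16 preadipocyte and fibroblast markers, such as Pdgfra and Col1a1, 9 were higher without stimulus, and 10 were higher and 1 lower after NE. Their sums were 37527 to 38136, 65774 to 76141, 29124 to 31756 and 57340 to 62769. The defining macrophage markers Ptprc, Adgre1 and Mrc1 and the endothelial marker Kdr were at 0 in all 12 libraries, and the summed normalized counts of the whole lists, untested genes included, were 13.1 to 58.3 for 7 macrophage markers (2 of them tested) and 4.34 to 23.3 for 6 endothelial markers (1 tested). Markers also moved with NE within each line. Of the preadipocyte and fibroblast markers, 8 were lower and 1 higher with NE in vector cells, and 9 were lower and 1 higher in tSema4B cells. Of the adipocyte markers, 1 was higher and 2 were lower in vector cells, and 3 were higher and 0 lower in tSema4B cells. Of the 7 tested brown adipocyte markers, 1 was higher in vector cells (Ucp1) and 2 in tSema4B cells (Ucp1 and Elovl3), with 0 lower. Both tested genes of the macrophage list were higher with NE in vector cells, Csf1r (log2FC 2.43, adjusted p = 0.0289), which rested on 1 to 2 reads per unstimulated and 15 to 22 per NE-treated library, and Cd14 (1.29, adjusted p = 0.0464). In tSema4B cells Csf1r was higher (3.00, adjusted p = 0.0119) and Cd14 gave 0.13 (adjusted p = 0.904). The part of these lists in the differences of the 10 genes, between the lines or with NE, was not tested.

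The 10 genes did not follow one pattern across the 12 libraries. Against the mean of their scaled log2 levels, Pearson's r was between 0.50 (Hibch) and 0.91 (Ivd) for 8 of them, -0.71 for Bcat1 and -0.04 for Bckdk. These are descriptions over libraries that share lines and treatments, and each gene is part of the mean it is set against. Among the tested genes outside the 10 whose levels were most like that mean were Phgdh, S100g and Sptssa (each r = 0.94) and Sun2 (r = 0.93).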

How the data were processed

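RNAseq was measured in 12 libraries (4 groups of 3, assigned from their labels). The authors made SMART-Seq2 libraries, removed non-mouse reads from the single-end data, used STAR 2.7.9a for alignment to GRCm38.p4 (mm10) and HTSeq for counting, and scaled by DESeq2. The deposited signal is thus a DESeq2-normalized count, and every non-zero value was a whole multiple of 1 read (100% of values, tolerance 0.01). The annotation and strand setting are not given in the sources used here.

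A gene was kept if 3 or more libraries had 10 or more normalized counts (11998). log2(value + 1) was fitted with limma 3.58.1 in R 4.3.3 over all 12 libraries, with variances following an abundance trend; p-values are two-sided, with the Benjamini-Hochberg correction across all genes. edgeR 4.0.16 and DESeq2 1.42.0 on whole reads, pseudocounts of 0.5 and 10, other filters and scalings, a fit of the 6 libraries compared, a replicate block and leaving out each library were alternatives. Libraries of a group differed by more than counting allows (chi-square per degree of freedom 3.65 to 6.12).

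Levels per kilobase used the union of exons of GENCODE M21, as did positions and overlaps; promoters came from RefSeq (GRCm38.p6). The members and gene lists were chosen with earlier results of these data known. Named genes were all members, every listed pathway gene that changed or places a member, the 5 genes most correlated with the members' mean, Sema4b and the markers. Some genes of the lists and of the ranking by likeness are not reported here.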

Additional observations from a re-analysis of the deposited data

How the results depend on the processing

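The 3 genes lower in tSema4B cells after NE stayed 3 with either pseudocount, without a filter or with one at 50 normalized counts, with quantile normalization, edgeR, DESeq2, a fit of the 6 libraries and the replicate block. They became 2 with libraries rescaled to the same total, 2 to 4 with a library left out, and 1 where a log2FC of 1 in size was also required. Bckdhb passed the test in unstimulated cells, making that count 1 in place of 0, with a pseudocount of 10 (log2FC -1.05), edgeR (-1.22), DESeq2 (-1.22) and only the 6 libraries compared (-1.25). Bcat1, the 1 gene higher with NE in vector cells, dropped out (0 genes) with the fold threshold, and leaving out each library gave 0 to 1. With the longest transcript the Bcat1 share moved to 7.21%, 11.6%, 10.9% and 21.8%.

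Small differences that were never past the threshold changed sign. Bckdha for NE in vector cells was 0.0024 with quantile normalization, and Bckdk for NE in tSema4B cells was 0.000666 with equal totals. Leaving out each library gave, for tSema4B against vector without stimulus, -0.17 to 0.011 for Bcat2, -0.10 to 0.048 for Bckdk and -0.44 to 0.091 for Mccc2. For NE in vector cells it gave -0.15 to 0.092 for Bckdha and -0.38 to 0.13 for Bckdhb. For NE in tSema4B cells it gave -0.048 to 0.016 for Bckdk, -0.28 to 0.19 for Dbt and -0.43 to 0.14 for Mccc1. For the interaction it gave -0.11 to 0.35 for Dbt, -0.25 to 0.12 for Ivd, -0.0095 to 0.56 for Mccc1 and -0.42 to 0.13 for Mccc2. The cause was not tested. Over all genes, the interaction passed 3 with limma and 29 higher and 58 lower with DESeq2, and NE in tSema4B cells 441 higher and 309 lower in the fit of 12 libraries and 230 and 152 in that of 6.

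Replicate numbers did not pair libraries: same-numbered libraries, after group means were removed, had correlations from -0.047 to 0.028 over 18 pairs, with 0 over 0.1. With the replicate block the adjusted p was 0.00233 for Bckdhb after NE and 0.0181 for Bcat1 with NE in vector cells, and no call of the 10 genes changed. Depth limits the low genes most, since Bckdhb rested on 5 to 135 reads per library and Bckdha on 25 to 94. The limit given for a count of 0 covers counting error only, because PCR copies of 1 molecule are counted as separate reads, while the 95% intervals of fold changes come from the spread between libraries.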
